A study of Mus musculus with 9 samples.

Results

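The cholesterol and fatty acid synthesis genes described here are 33 genes, chosen by symbol. There are 6 enzymes of the mevalonate route and 11 enzymes that turn its product into squalene and sterols. The 5 regulators are the SREBP factor genes Srebf1 and Srebf2, with Scap, Insig1 and Insig2. The others are an acetyl-CoA thiolase, a sterol carrier, 6 enzymes of fatty acid synthesis and 3 genes switched on by the liver X receptors. All 33 were found among the 37187 genes of the table for LSK cells and among the 45076 gene symbols of the table for neutrophils. The study read transcripts by bulk RNA-seq in bone marrow of mice with and without intact Spop, the part of a cullin-based ubiquitin ligase that picks its substrates, and asked how Spop restrains blood formation driven by inflammation. LSK cells are the lineage-negative, Sca-1-positive, Kit-positive marrow fraction that holds stem cells and multipotent progenitors, and neutrophils had been sorted as Ly6G+ cells. There were 2 Spop(+/+) LSK libraries (wild type), 2 Spop(D/D) LSK libraries (knockout), 2 Spop(+/+) neutrophil libraries and 3 Spop(D/D) neutrophil libraries. Every group was bone marrow of mice aged 4 to 12 weeks, and the labels name no treatment. The labels do not say which part of Spop is deleted, which Cre or promoter removed it, or whether animals were pooled.

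Cholesterol is made from acetyl-CoA through mevalonate, isoprenoid diphosphates, squalene and lanosterol, and the long-chain fatty acids of membranes are made from the same acetyl-CoA. SREBP-2, encoded by Srebf2, and SREBP-1, encoded by Srebf1, are membrane-bound transcription factors that Scap escorts out of the endoplasmic reticulum when sterols are scarce, while Insig1 and Insig2 hold them back when sterols are plentiful. In blood-forming cells, new membrane is needed for each division, and the efflux of cholesterol through the transporters Abca1 and Abcg1 is known to restrain the proliferation of stem and progenitor cells.

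SREBP factors act on promoters through sterol regulatory elements together with the CCAAT-binding factor NF-Y and the GC-box factor Sp1. Sequences before the start sites are therefore shown for some of the genes that changed in LSK cells. The RefSeq promoter table (build GRCm38.p6, from 250 bases before to 50 bases after each start) held 26 of the 33 genes, and Fdps, Fdft1, Sqle, Stard4, Scd1, Scd2 and Abcg1 had no entry. Each line is 120 bases on the gene's own strand, and capitals mark matches to TCACNCCAC or to CCAAT on either strand. The lines were limited to genes with a single promoter entry holding 120 bases before any annotated start. Among these, Mvd, Cyp51, Hsd17b7 and Fasn had the largest rises and Abca1 the largest fall. Hmgcs1 was added for its match to TCACNCCAC. Its line was placed at -160 to -41 from the RefSeq start to include that match. The places are chr13:119690191-119690310 (plus strand) for Hmgcs1, chr8:122443423-122443542 (minus) for Mvd, chr5:4104747-4104866 (minus) for Cyp51, chr1:169969242-169969361 (minus) for Hsd17b7, chr11:120824548-120824667 (minus) for Fasn and chr4:53159896-53160015 (minus) for Abca1.
Hmgcs1: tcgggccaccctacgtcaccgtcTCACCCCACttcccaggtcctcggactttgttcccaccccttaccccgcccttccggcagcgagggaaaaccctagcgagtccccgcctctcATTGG
Mvd: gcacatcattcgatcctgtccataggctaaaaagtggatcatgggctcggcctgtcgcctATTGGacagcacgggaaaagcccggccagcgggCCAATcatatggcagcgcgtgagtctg
Cyp51: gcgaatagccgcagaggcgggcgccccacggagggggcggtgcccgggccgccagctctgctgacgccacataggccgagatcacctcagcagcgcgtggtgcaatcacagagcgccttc
Hsd17b7: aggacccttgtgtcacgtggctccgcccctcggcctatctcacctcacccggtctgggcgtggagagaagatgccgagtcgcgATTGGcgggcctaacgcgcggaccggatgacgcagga
Fasn: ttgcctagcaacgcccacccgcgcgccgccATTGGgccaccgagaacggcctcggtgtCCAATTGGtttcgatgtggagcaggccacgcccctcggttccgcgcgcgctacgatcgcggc
Abca1: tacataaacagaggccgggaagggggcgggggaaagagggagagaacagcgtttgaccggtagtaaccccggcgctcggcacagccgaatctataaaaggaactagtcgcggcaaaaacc

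The sterol element was searched only as TCACNCCAC, on both strands of the whole 300 bases. That form was present in 1 of the 26 genes, Hmgcs1, where it starts at position -137 from the RefSeq start. It was held by 1.44% of the 27025 genes in the promoter table. Other forms of the sterol element were not searched, so no absence of it from the remaining genes can be read from this. CCAAT was present in 21 of the 26, against 41.1% of all 27025 genes and 42.3% of the 17492 protein-coding genes. The Abca1 window holds neither motif, and the CCAAT of Cyp51, at position -29, lies after the end of its line. In Fasn a pair of CCAAT matches on opposite strands overlap within a single run of letters. The GC box GGGCGG was present in 22 of the 26, against 38.2% of all genes and 49.2% of coding genes. The DR4 element of the liver X receptors was searched only as AGGTCA repeated exactly after 4 bases. That exact repeat was in none of the 26 and in 0.0148% of all genes. Forms that differ from it in any base were not searched, so no absence of the element from Abca1 or Mylip can be read from this. These matches describe the windows only.

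Depth was 18827892 to 20264417 counted reads per LSK library and 21012702 to 27434086 per neutrophil library. Levels are given as CPM (read counts per 1000000 counted reads, scaled by TMM factors), changes as log2 of knockout over wild type from edgeR's quasi-likelihood test, and a gene is said to rise or fall at a Benjamini-Hochberg adjusted p below 0.05 over all genes tested. Spop transcript stood at 380 and 390 CPM in wild-type LSK cells and 312 and 306 in the knockout (log2 change -0.32, adjusted p = 0.0118), and its groups overlapped in neutrophils. Ly6g had 0 reads in all 4 LSK libraries, including the second knockout library, whose cell type field names neutrophils although it is titled and sourced as LSK. Knockout LSK libraries also differed in cell-state markers: the summed level of 8 granulocyte-monocyte progenitor genes was 1720 and 2264 CPM in wild type and 16350 and 19270 in knockout, and all 8 rose. The sum of 10 proliferation genes was 1701 and 1624 CPM in wild type and 3206 and 3380 in knockout, with 9 of 10 higher and Mki67 not called. The sum of 10 LSK markers fell from 4888 and 4619 to 3107 and 3324 CPM, with 7 lower and 2 higher, and none of the progenitor, proliferation or LSK markers was at 0 reads. Red-cell genes summed to 1078 and 1009 CPM in wild-type LSK cells and 395 and 487 in the knockout, with 7 of 10 lower and 3 or 4 at 0 reads per knockout library. B-cell genes fell in 7 of 9 tested, though their sums overlapped. Of 10 neutrophil genes tested, 3 rose and 2 fell. Of 12 macrophage and dendritic-cell genes, 2 rose and 6 fell, and of 5 T-cell and NK-cell genes tested, 1 rose and 2 fell. Over all 13008 genes tested, 21.0% rose and 21.2% fell. The part of these shifts in the lipid gene results was not tested, and in bulk libraries a change in the share of a cell type cannot be told apart from a change in RNA per cell.

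In LSK cells the synthesis genes were higher in the knockout. Of the 33 genes, 32 passed the filter on low counts, 21 rose and 3 fell. Over all 13008 genes tested, 21.0% rose and 21.2% fell. The median log2 change was 0.63 over the 32 lipid genes and -0.03 over all genes. Both knockout libraries lay above both wild-type libraries for 24 of the 32, as they did for 34.6% of all genes, and below them for 5, against 38.3%. The 33 genes together made up 2113 and 1946 CPM of the wild-type libraries and 2936 and 2949 CPM of the knockout ones. The 3 that fell were Srebf2, Abca1 and Mylip. The 8 that were tested and not called were Idi1, Fdft1, Tm7sf2, Nsdhl, Insig2, Stard4, Elovl6 and Abcg1.

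**Figure D1:**
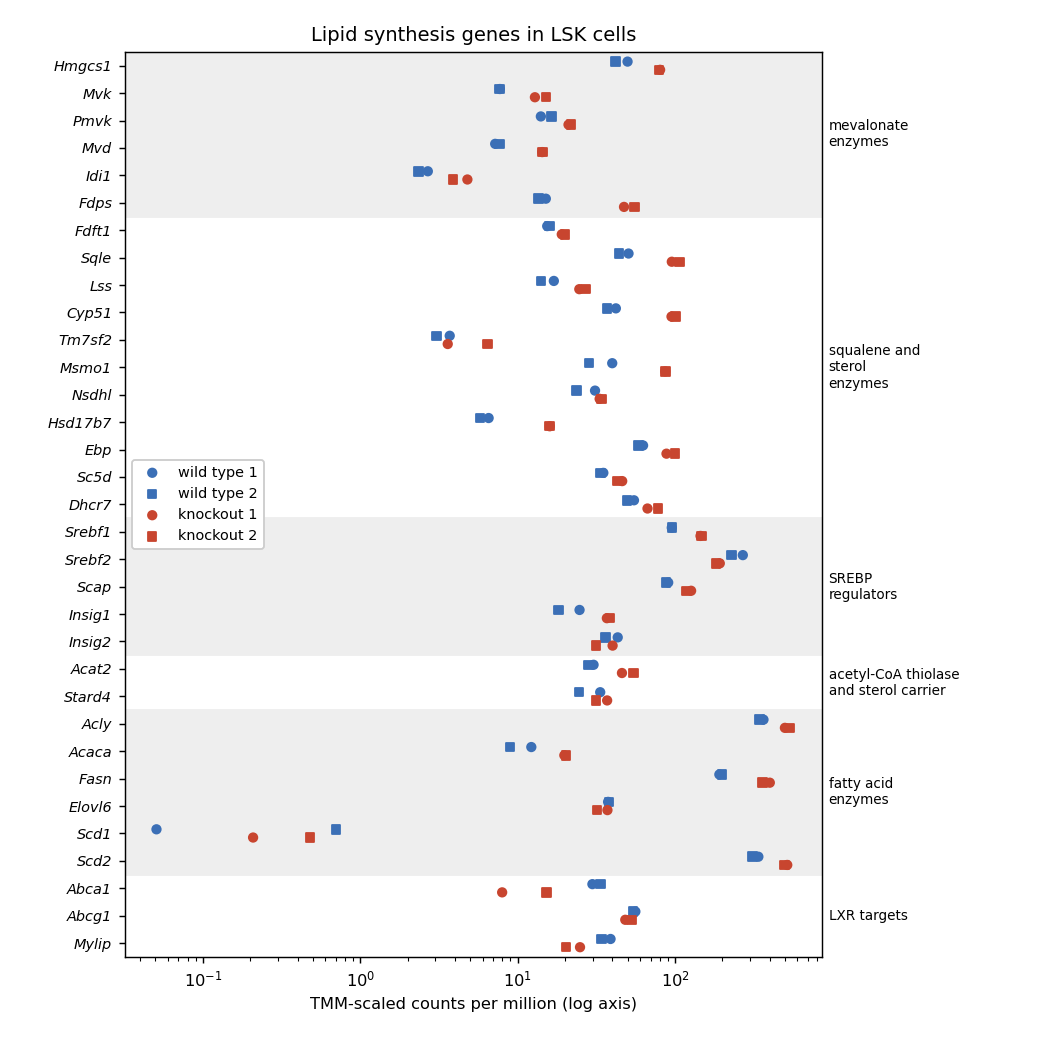
Level of each of the 33 genes in the 4 LSK libraries (x axis: CPM, TMM-scaled, log axis; blue, wild type; red, knockout; circles and squares are replicates 1 and 2). Red symbols lie to the right of both blue ones in 24 genes and to the left in 5.

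The mevalonate enzymes rose in 5 of 6 cases, with a median log2 change of 0.83. Fdps (chromosome 3, 89093588 to 89101959, minus strand, GRCm38), which makes farnesyl diphosphate, had 15.1 and 13.6 CPM in wild type, and 47.4 and 55.3 in knockout. The knockout values stood well clear of the wild-type pair, and the change of 3.58-fold was the highest among the 32 genes (log2 1.84, SE 0.155, adjusted p = 2.72e-06). Of its exon bases, 26.7% are shared with Gm43738 on the same strand, the largest overlap among the 33 genes, so reads there could belong to either. Hmgcs1, the synthase that makes the HMG-CoA entering the route, was at 50.0 and 41.9 CPM in wild type and 80.4 and 78.9 in knockout, again without overlap (log2 0.79, SE 0.125, adjusted p = 2.80e-04), and 12.1% of its exon bases are shared with a gene on the other strand. Mevalonate kinase, Mvk, was at 7.71 and 7.69 CPM against 12.9 and 15.1 (log2 0.86, adjusted p = 0.00695). Mvd, which decarboxylates mevalonate diphosphate to isopentenyl diphosphate, stood at 7.20 and 7.69 CPM against 14.3 and 14.4 (log2 0.95, adjusted p = 0.00351). Pmvk, the phosphomevalonate kinase, had the smallest change of these, from 14.1 and 16.4 to 21.1 and 21.8 CPM (log2 0.49, adjusted p = 0.0450). Idi1, the isopentenyl diphosphate isomerase, was at 2.69 and 2.35 CPM in wild type and 4.80 and 3.88 in knockout; it did not overlap either, but did not pass (log2 0.79, SE 0.363, adjusted p = 0.0999). Summed over the 6 enzymes, the level was 96.7 and 89.7 CPM in wild type and 181 and 189 in knockout.

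Of the 11 squalene and sterol enzymes, 8 rose and none fell, with a median log2 change of 0.64. Those past 2-fold were Hsd17b7, Msmo1, Cyp51 and Sqle. Hsd17b7, the 3-keto sterol reductase, was low, at 6.54 and 5.77 CPM in wild type and 16.0 and 16.0 in knockout (log2 1.38, SE 0.218, adjusted p = 2.90e-04). Msmo1, the methyl sterol oxidase, was at 39.9 and 28.4 CPM in wild type and 86.7 and 86.9 in knockout (log2 1.35, SE 0.154, adjusted p = 3.49e-05). Cyp51, the lanosterol demethylase, was at 42.1 and 37.1 CPM against 95.0 and 101 (log2 1.31, SE 0.121, adjusted p = 5.13e-06). In each of these genes the knockout libraries were close to each other and above both wild-type libraries. Sqle, the squalene epoxidase, was at 50.7 and 44.1 CPM against 95.5 and 107 (log2 1.09, SE 0.122, adjusted p = 2.21e-05).

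The later and flanking steps changed less. Lss, which folds oxidosqualene into lanosterol, went from 17.0 and 14.0 to 24.7 and 27.1 CPM (log2 0.74, adjusted p = 0.00554). Ebp, the sterol isomerase, went from 62.7 and 58.7 to 88.3 and 100 CPM (log2 0.64, adjusted p = 8.47e-04). Dhcr7, the last reductase of the route, went from 54.9 and 49.4 to 66.9 and 78.1 CPM (log2 0.48, adjusted p = 0.00908), and the desaturase Sc5d from 35.1 and 33.6 to 46.2 and 43.2 (log2 0.38, adjusted p = 0.0352). In all 4 genes the knockout libraries lay above the wild-type ones. The other 3 enzymes did not pass. Fdft1, squalene synthase, was at 15.4 and 15.9 CPM against 19.1 and 20.0 (log2 0.32, 95% interval -0.07 to 0.71), and Nsdhl, which removes the oxidised methyl carbon, at 31.0 and 23.7 against 33.2 and 34.2 (log2 0.30, interval -0.05 to 0.65). Tm7sf2, a sterol reductase, was at 3.70 and 3.05 CPM against 3.60 and 6.44, so its groups overlapped. For Fdft1, 18.3% of the exon bases are shared with the gene Ctsb on the other strand, and for Tm7sf2, 12.1% are shared with Vps51 on the same strand, so reads there could belong to either gene.

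Over mevalonate and sterol enzymes together, 13 of 17 rose, none fell, and the summed level went from 456 and 404 CPM to 756 and 809. Of the 33 lipid genes, 19 rose without wild-type replicate 1, 17 without wild-type replicate 2, 21 without knockout replicate 1 and 20 without knockout replicate 2. The weakest calls were Pmvk, lost in 6 of 10 alternative settings, and Sc5d, lost in 5. With wild-type replicate 2 left out, Dhcr7 and Lss were lost too (adjusted p = 0.0892 and 0.0603). When the spread was estimated from all 9 libraries, neutrophils included, no lipid gene was called in LSK cells (adjusted p from 0.325 to 0.999), and neither was any other gene.

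**Figure D2:**
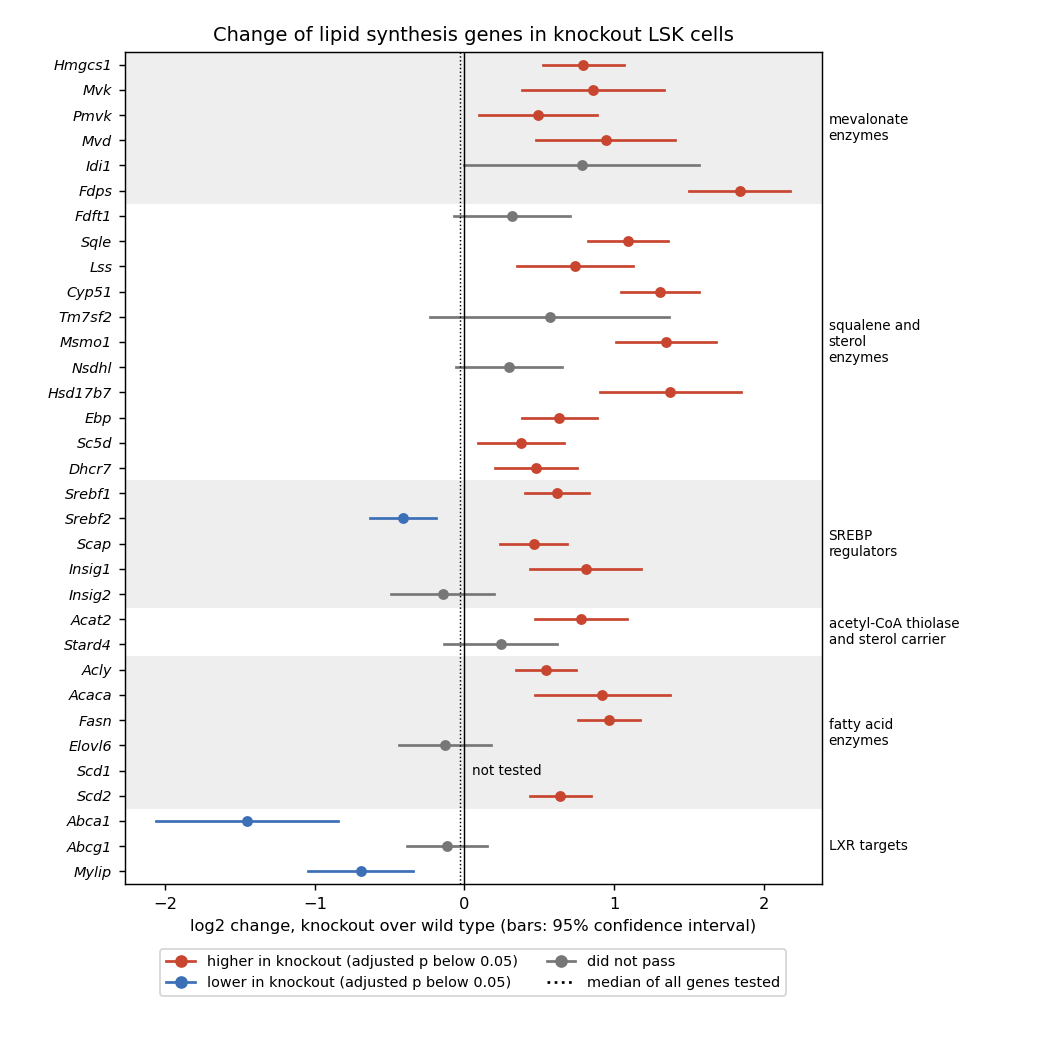
Log2 change of knockout over wild-type LSK cells for each gene, with its 95% confidence interval from edgeR (x axis); red genes rose, blue genes fell and grey genes did not pass, and the dotted line is the median of all genes tested (-0.03). Fdps lies farthest right at 1.84, and Abca1 farthest left at -1.45.

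The regulators did not move together. Srebf2 stood at 270 and 229 CPM in wild-type LSK cells and 193 and 183 in the knockout, all knockout values being lower (log2 -0.41, SE 0.103, adjusted p = 0.00635). Srebf1 moved the other way, from 95.4 and 95.6 to 145 and 148 CPM (log2 0.62, SE 0.0981, adjusted p = 2.96e-04). Different genes are compared per kilobase of exon, with every annotated exon base of a gene counted. The transcripts present may be shorter than that, so orders between genes depend on the annotation. On this scale, the ratio of Srebf2 to Srebf1 was 2.22 and 1.88 in wild type and 1.04 and 0.969 in knockout. Srebf2 thus stood above Srebf1 in the wild-type libraries, and the levels were nearly equal in the knockout libraries. The call on Srebf2 was lost without the first wild-type library (log2 -0.29, adjusted p = 0.139). The table counts reads over the whole gene, so the SREBP-1a and SREBP-1c forms of Srebf1 are not separated.

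Insig1, itself known as a target of the SREBP factors, was at 24.8 and 18.3 CPM in wild type and 36.9 and 38.5 in knockout (log2 0.81, SE 0.171, adjusted p = 0.00220). Insig2 was at 43.3 and 36.1 CPM against 40.1 and 31.5, with overlapping groups (log2 -0.15, interval -0.49 to 0.20, adjusted p = 0.487). Per kilobase of exon, the ratio of Insig2 to Insig1 was 1.56 and 1.76 in wild type and 0.969 and 0.729 in knockout. Scap, the escort protein, rose from 90.5 and 87.5 to 127 and 119 CPM (log2 0.46, SE 0.103, adjusted p = 0.00311), although 13.2% of its exon bases are shared with a gene on the other strand. Summed over the 5 regulators, the wild-type libraries were at 524 and 467 CPM and the knockout libraries at 542 and 519, so the sum showed little of these opposed changes.

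**Figure D3:**
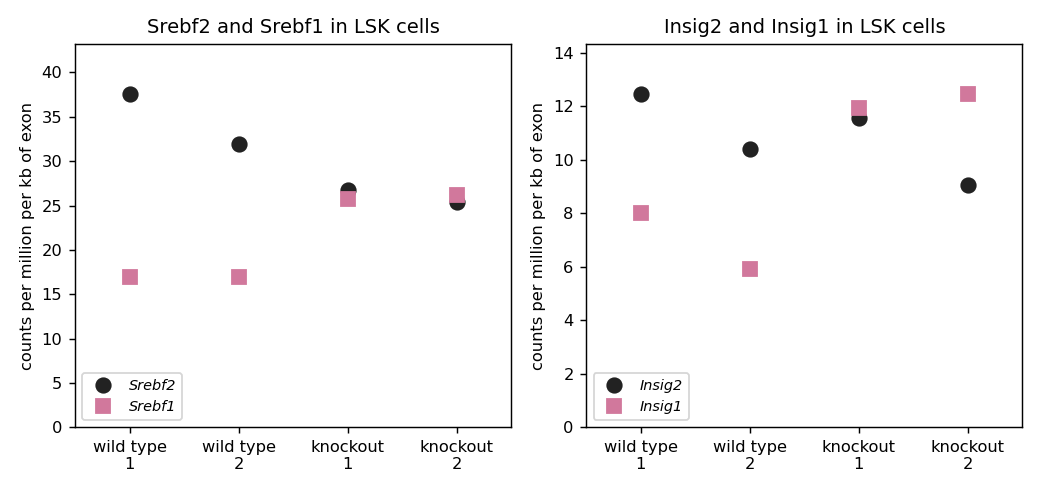
Levels of Srebf2 and Srebf1 (left) and of Insig2 and Insig1 (right) in each LSK library, as TMM-scaled CPM per kilobase of exon on a linear axis from 0. The Srebf2 symbols lie above Srebf1 in wild type, by ratios of 2.22 and 1.88, and next to it in knockout, at 1.04 and 0.969.

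Acat2, the cytosolic thiolase that joins acetyl-CoA units ahead of Hmgcs1, was at 30.4 and 28.2 CPM in wild type and 46.0 and 54.5 in knockout (log2 0.78, SE 0.142, adjusted p = 8.03e-04). Stard4, a cytosolic sterol carrier, was at 33.5 and 24.6 CPM against 37.1 and 31.6, with overlapping groups (log2 0.24, interval -0.13 to 0.62).

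Fatty acid synthesis rose in 4 of its 5 tested enzymes, with a median log2 change of 0.64. Fasn, the fatty acid synthase, was at 191 and 198 CPM in wild type and 400 and 361 in knockout, a change of 1.95-fold without overlap (log2 0.97, SE 0.0946, adjusted p = 8.16e-06). Acaca, the acetyl-CoA carboxylase that commits carbon to the route, was at 12.2 and 8.96 CPM against 19.8 and 20.3 (log2 0.92, SE 0.208, adjusted p = 0.00340). Acly, which releases acetyl-CoA from citrate in the cytosol, was at 365 and 345 CPM against 500 and 538 (log2 0.55, SE 0.0927, adjusted p = 4.88e-04). Scd2, a stearoyl-CoA desaturase, was at 339 and 310 CPM against 517 and 495 (log2 0.64, SE 0.0932, adjusted p = 1.53e-04). All 4 were therefore higher in both knockout libraries. Elovl6, which lengthens palmitate, was at 37.6 and 38.1 CPM in wild type and 37.2 and 31.9 in knockout and did not pass (log2 -0.13, interval -0.44 to 0.17).

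Scd1, the other desaturase listed, was barely read in LSK cells, with 1 and 15 reads in wild type and 4 and 9 in knockout, and was not tested. A count of 0 at these depths would still allow 3 reads, or 0.141 to 0.160 CPM, which covers counting error only. Per kilobase of exon, mean Scd2 stood at 59.4 in wild type and 92.6 in knockout, and mean Scd1 at 0.0771 and 0.0703. The LSK cells thus read the Scd2 paralogue almost alone of the pair.

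The 3 genes listed here as liver X receptor targets went down or did not pass. Abca1, which exports cholesterol to apolipoprotein A-I, was at 29.9 and 33.7 CPM in wild type and 7.98 and 15.3 in knockout. The knockout libraries were unlike each other, but both lay under the wild-type ones (log2 -1.45, SE 0.270, adjusted p = 0.00207), 2.74-fold lower. Mylip, the ligase that marks lipoprotein receptors for breakdown, was at 39.0 and 34.1 CPM against 24.9 and 20.2 (log2 -0.69, SE 0.163, adjusted p = 0.00437), and lost its call without the first wild-type library (adjusted p = 0.0643). Abcg1, which exports cholesterol to high-density lipoprotein, was at 56.0 and 54.0 CPM against 48.3 and 53.1 (log2 -0.12, interval -0.38 to 0.15). Leaving out the first or the second knockout library moved the Abca1 change to -1.02 or -1.99.

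On the per-kilobase scale, the order of levels in wild-type LSK cells began with Acly at 67.3 and Scd2 at 59.4, followed by Srebf2 at 34.7, Ebp at 26.3, Fasn at 17.8 and Srebf1 at 17.0. In the knockout it began with Acly at 98.2, Scd2 at 92.6, Ebp at 40.8 and Fasn at 34.8, and Srebf2 and Srebf1 came next at 26.1 and 26.0. The lowest in wild type, after Scd1, were Acaca at 0.620, Idi1 at 0.718 and Tm7sf2 at 0.767. Acaca and Fasn, consecutive enzymes of the same route, thus lay far apart on this scale, while their log2 changes were 0.92 and 0.97. The scale divides by 17074 annotated exon bases for Acaca and 10947 for Fasn.

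Other genes of lipid metabolism, a list of 42 with 40 tested, were higher in 15 cases and lower in 4 in knockout LSK cells, with a median log2 change of 0.24. Over all 13008 genes tested, 21.0% were higher and 21.2% lower, with a median of -0.03. Soat1, which esterifies cholesterol for storage, was at 42.3 and 48.3 CPM in wild type and 124 and 120 in knockout (log2 1.43, adjusted p = 2.01e-06). Tmem97, an endoplasmic reticulum protein tied to sterol trafficking, was at 33.4 and 31.1 CPM against 80.0 and 90.5 (log2 1.40, adjusted p = 4.40e-06). Lpin1, a phosphatidate phosphatase, was at 57.4 and 57.8 CPM against 21.7 and 27.1 (log2 -1.24, adjusted p = 3.25e-05). These 3 had the largest changes of the 10 with the smallest p. Erlin1, Elovl1, Fabp5, Hacd3, Acsl5, Acsl1 and Fads2, the others among those 10, rose by log2 values of 0.51 to 0.94. Acss2, which makes acetyl-CoA from acetate, also fell (log2 -0.66). Abcg4, a sterol transporter called lower at an adjusted p of 0.0436, had only 11 and 35 reads in wild type and 7 and 1 in knockout, the last under the floor of 3 reads, so no fold is given.

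In neutrophils the libraries stood apart from each other within each genotype. The second wild-type library held 17120 CPM of 10 B-cell genes and 23530 of 12 macrophage and dendritic-cell genes, against 564 and 878 in the first. In the 3 knockout libraries these sums were 23.1 to 1610 and 171 to 271. The sum of 12 neutrophil markers was 224100 and 38850 CPM in wild type against 231100, 246600 and 674700 in knockout, and in the third knockout library 18.2% of reads belonged to S100a8. Of the 10 B-cell genes, 2 or 3 were at 0 reads in each knockout library, and Ly6g ran from 85.7 CPM in the second wild-type library to 914 in the third knockout library. Summed over the 33 lipid genes, the level was 703 and 683 CPM in wild type and 1224, 1154 and 679 in knockout. The first and second knockout libraries were thus above both wild-type libraries, and the third was close to the lower wild-type library. The third was also the lowest of the knockout libraries in 30 of the 33 genes, a count that was not made over all genes. The sum of 10 red-cell genes was 1785 and 3731 CPM in wild type against 40.5, 3.60 and 18650 in knockout. The B-cell sums in knockout were 151, 23.1 and 1610 CPM. The sum of 10 T-cell and NK-cell genes was 184 and 1265 CPM in wild type against 98.55, 41.96 and 134.6 in knockout. The first and second knockout libraries, where the lipid sum was high, were the lowest in each of these sums. The macrophage and dendritic-cell sums, 195, 271 and 171 CPM in knockout, did not have this order. The part of the marker differences in the values that follow was not tested.

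None of the 33 genes was called in neutrophils by edgeR, where 0% of the 12836 genes tested were called. Without adjustment, 6 of the 33 had a p below 0.05, against 13.9% of all genes. DESeq2, run as an alternative, called Hmgcs1, Fdps, Msmo1 and Sc5d higher and Scd1 lower, among 278 genes higher and 613 lower. The median log2 change was 0.58 over the 33 genes and 0.02 over all genes. It was 0.22 for the 33 genes without knockout replicate 1 and 0.30 without wild-type replicate 2. The 3 knockout libraries lay above both wild-type libraries for 9 of the 33, against 17.0% of all genes, below them for 2, against 17.5%, and overlapped them for 22.

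**Figure D4:**
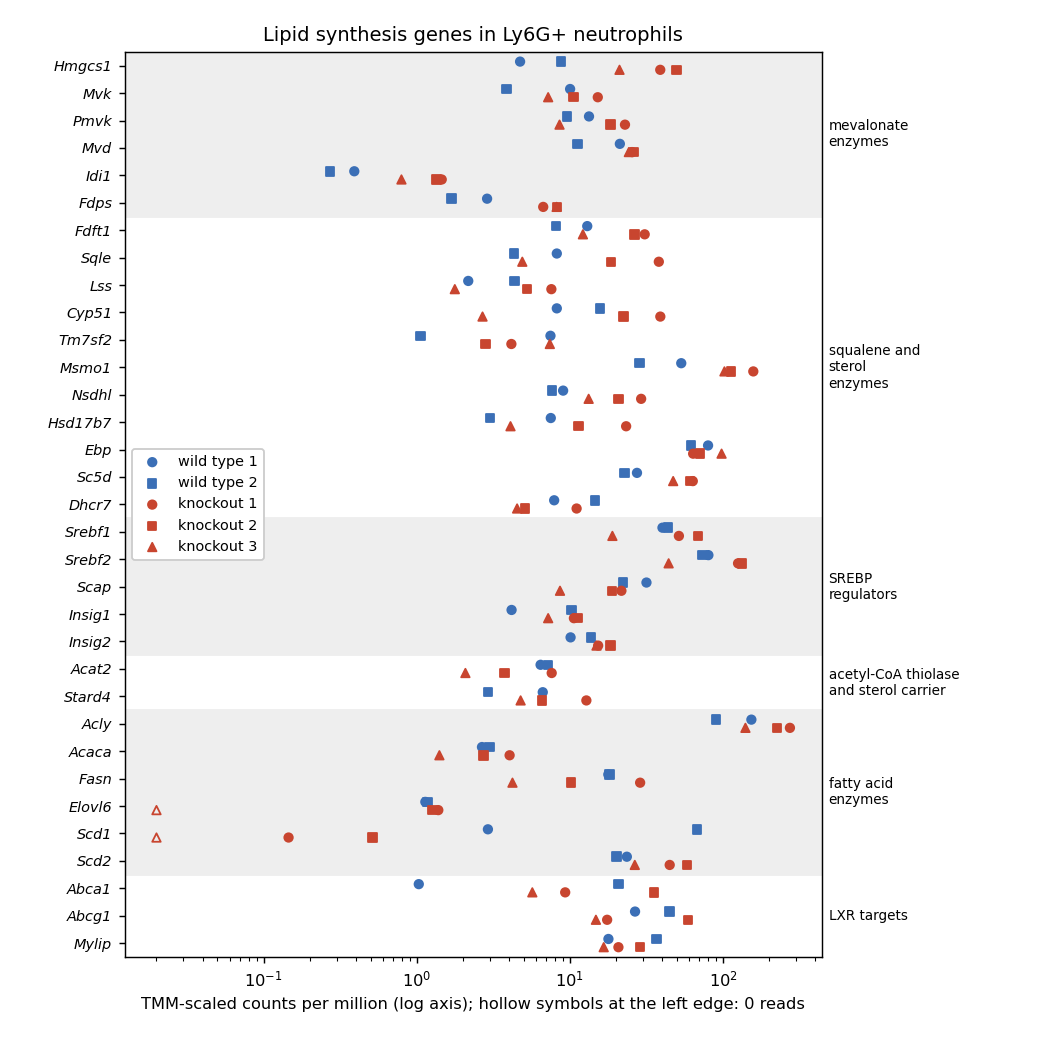
Level of each of the 33 genes in the 5 neutrophil libraries (x axis: CPM, TMM-scaled, log axis; blue, wild type; red, knockout; circles, squares and triangles are replicates 1, 2 and 3; hollow symbols at the left edge stand for 0 reads). The third knockout library, drawn as triangles, is the lowest of the red symbols in 30 genes.

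Among the mevalonate and sterol enzymes, 16 of 17 had a positive change in neutrophils, with a median log2 of 1.14. Over all 12836 genes tested, 6532 had a positive change. In 14 of the 17 the first and second knockout libraries both lay above both wild-type libraries, and in 8 of the 17 the third did. The share of all genes with either arrangement was not counted, so these counts have no background beside them. Hmgcs1 had 4.73 and 8.77 CPM in wild type, and 38.9, 49.5 and 21.1 in knockout. Every knockout library exceeded the wild-type ones (log2 2.43, SE 0.546, unadjusted p = 0.00290, adjusted p = 0.209). Msmo1 was at 53.4 and 28.4 CPM against 158, 113 and 102 (log2 1.60, SE 0.459, adjusted p = 0.226), and Fdps at 2.88 and 1.69 against 6.70, 8.22 and 8.20 (log2 1.75, SE 0.548, adjusted p = 0.243). Sc5d was at 27.4 and 22.7 CPM against 63.5, 61.0 and 47.3 (log2 1.19, SE 0.358, adjusted p = 0.240). Nsdhl was at 9.04 and 7.68 CPM against 29.2, 20.8 and 13.3 (log2 1.34, SE 0.470, adjusted p = 0.285). These 5 enzymes shared groups that did not overlap, as did Mvd, from 21.2 and 11.2 to 25.5, 26.2 and 24.3 CPM, and Idi1, which stayed under 1.5 CPM in every library.

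Sqle and Cyp51 show how far the third knockout library lay from the others. Sqle was at 8.22 and 4.32 CPM in wild type, and 38.1, 18.5 and 4.89 in knockout. Cyp51 was at 8.22 and 15.7 CPM in wild type, and 39.0, 22.5 and 2.69 in knockout. In both genes 2 of the knockout libraries were higher than wild type and the third was within or under the wild-type range. Fdft1, Lss, Hsd17b7, Mvk and Pmvk had the same arrangement, and Ebp, at 79.9 and 61.9 CPM against 63.8, 71.0 and 97.9, did not. Dhcr7, the only enzyme of the 17 with a negative change, was at 7.90 and 14.6 CPM against 11.1, 5.10 and 4.53.

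The regulators in neutrophils were called in no direction. Srebf2 was at 80.3 and 73.4 CPM in wild type and 125, 133 and 44.2 in knockout, and Srebf1 at 40.3 and 43.6 against 51.5, 68.6 and 19.0. For both, the first and second knockout libraries were above and the third below both wild-type libraries. The per-kilobase ratio of Srebf2 to Srebf1 was 1.57 and 1.32 in wild type and 1.91, 1.52 and 1.83 in knockout, so it overlapped. Insig2 was at 10.1 and 13.7 CPM against 15.3, 18.4 and 14.9, and Insig1 at 4.16 and 10.3 against 10.6, 11.2 and 7.22. Scap was at 31.6 and 22.2 CPM in wild type and 21.7, 18.8 and 8.63 in knockout, lower in all knockout libraries (log2 -0.72, adjusted p = 0.545).

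Of the remaining genes, Scd2 was at 23.6 and 20.1 CPM in wild type and 44.9, 58.2 and 26.6 in knockout (log2 0.99, SE 0.440, adjusted p = 0.381), all knockout libraries being higher. Scd1 was at 2.92 CPM (82 reads) and 67.8 CPM (2243 reads) in wild type, and at 4, 13 and 0 reads in knockout. Its wild-type level came mostly from the second library, the one high in B-cell and macrophage genes, and the fitted log2 change of -7.22 (adjusted p = 0.216) is no bound, since it leans on a library at 0. Acly was at 153 and 90.0 CPM against 274, 225 and 140, and Fasn at 17.8 and 18.2 against 28.8, 10.2 and 4.22. Abca1 ranged from 1.03 to 20.8 CPM in wild type and from 5.69 to 35.4 in knockout, and Abcg1 from 26.7 to 44.8 and from 14.8 to 59.3. Acat2, Stard4, Acaca, Elovl6 and Mylip also overlapped, with log2 changes from -0.60 to 0.75, and Elovl6 had 0 reads in the third knockout library. None of the other lipid genes was called in neutrophils, of 41 tested, and 7 had an unadjusted p below 0.05, where 13.9% of all genes did.

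Whether the change differed between LSK cells and neutrophils was tested as an interaction in a fit of all 9 libraries. None of the 33 genes passed with edgeR, where 0.0290% of 13790 genes did. With the spread shared over all 9 libraries, no gene was called for the knockout effect in LSK cells either. A missing call in this test therefore says little. Without adjustment, 2 of the 33 had a p below 0.05, against 15.7% of all genes: Hmgcs1, with a difference of LSK minus neutrophils of -1.61 on the log2 scale (interval -3.02 to -0.20, adjusted p = 0.271), and Scd1 (difference 7.09, adjusted p = 0.234). DESeq2 called Scd1 alone among the 33, and its calls over all genes were not counted for this test. Scd1 had only 1 to 15 reads per LSK library. Its wild-type neutrophil reads were 82 and 2243, mostly from the library high in B-cell and macrophage genes. The intervals of most genes were wide, as for Fdps (difference 0.15, interval -1.02 to 1.32) and Msmo1 (difference -0.20, interval -1.44 to 1.03). The genes are therefore not shown to respond differently, or alike, in the sorted populations.

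**Figure D5:**
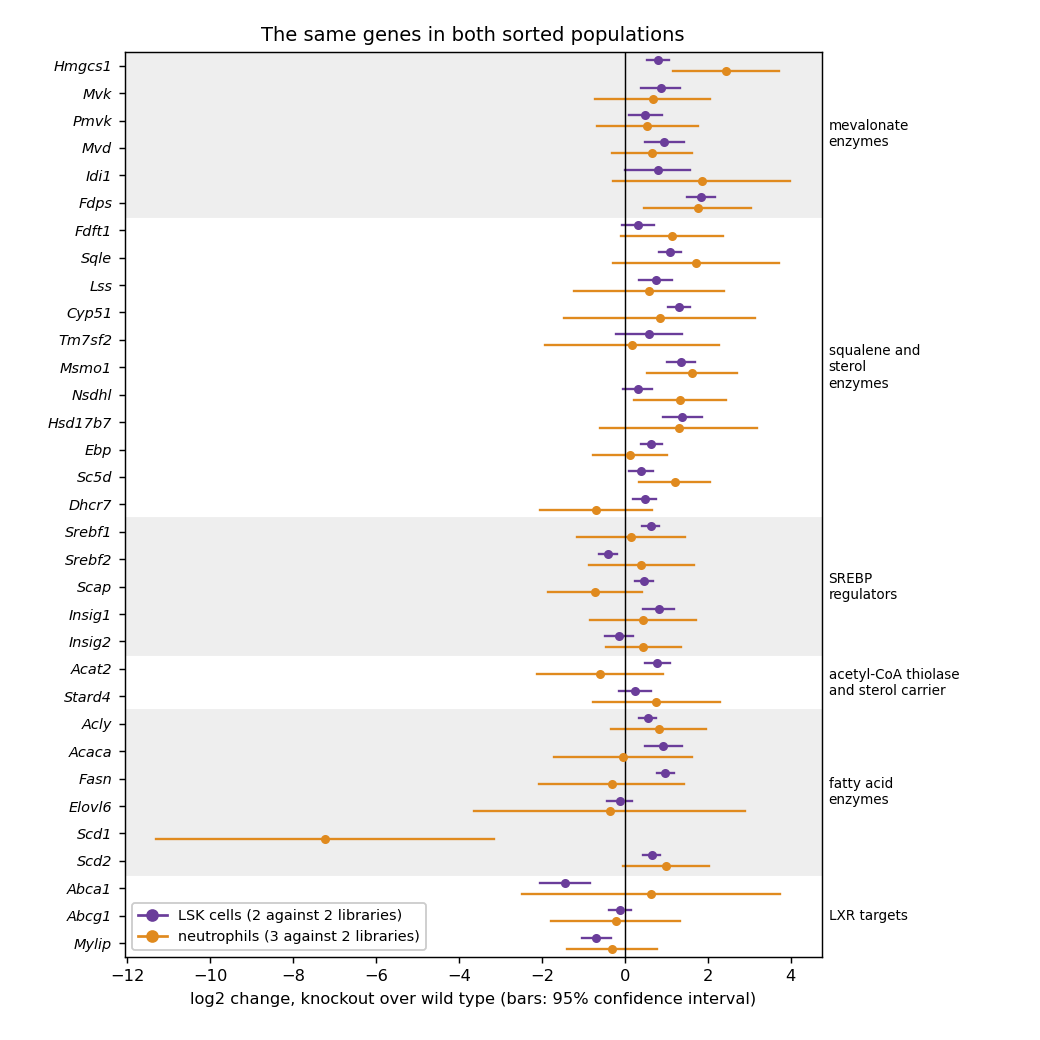
Log2 change of knockout over wild type for each gene in LSK cells (purple) and in neutrophils (orange), with 95% confidence intervals from edgeR; Scd1 was tested in neutrophils only. The neutrophil intervals are wider, and for the mevalonate and sterol enzymes the orange points lie above 0 in 16 of 17.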

How the data were processed

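The authors deposited raw read counts for each sorted population, and every test used these counts. They also deposited normalized values (signal), each count being divided by its library's factor; these served only to find the 33 symbols, with which the raw counts agreed within 0.018 reads. RNA had been extracted with RNeasy Micro and amplified with SMART-Seq v4, per the labels. Per the submitters' processing notes, bcl2fastq, STAR, featureCounts and DESeq2 were used, with builds mm10 and GRCm38; their versions, the annotation and the strand setting were not given, so reads of overlapping genes cannot be told apart.

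Each population was fitted apart in edgeR 4.0.16 (R 4.3.3) with TMM factors, the package's filter on low counts and a robust quasi-likelihood test of knockout against wild type, and p-values were adjusted by Benjamini-Hochberg over all genes tested (threshold 0.05). The interaction used 35153 genes joined by symbol over both tables. Lengths, coordinates and exon overlaps came from GENCODE M21 on GRCm38. Intervals are 95% confidence intervals. The procedure was tested on simulated counts that had the same spread in both populations. Real neutrophil replicates differed far more than LSK replicates (chi-square per gene up to 731 against up to 16.9). The simulation therefore does not show how the test performs on the neutrophil libraries. Alternatives were DESeq2 1.42.0, other scalings, no filter, a replicate block, a shared spread and leaving out each library.

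Libraries were grouped by their titles. No label says whether the replicates are different animals, and the p-values then measure only how these libraries vary, which may be technical variation; replicate counts were further apart than sampling noise (lowest chi-square per gene 9.39). The 33 genes, the 42 other lipid genes and the marker lists were chosen with earlier results of these data known. By rule, all 33 genes are named, with Spop, marker sums and up to 10 of the other lipid genes called in LSK cells (smallest p); Acss2 and Abcg4 were named after their values were seen. A few genes of these lists are not reported here.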

Additional observations from a re-analysis of the deposited data

How the results depend on the processing

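In LSK cells, DESeq2, DESeq2 size factors, upper-quartile scaling, no filter and the replicate block each called 19 to 21 lipid genes higher and 3 lower. Leaving out a library gave 17 to 21 higher and 1 to 3 lower (1 without the first wild-type library). With a spread shared over all 9 libraries, 0 lipid genes, 0 other lipid genes and 0 of all genes were called there in either direction; the cause was not tested. Leaving out a library gave 1676 to 2816 genes lower over all genes, and 10 to 21 other lipid genes higher and 1 to 4 lower. Upper-quartile scaling called 2207 genes higher and 3445 lower in LSK cells, against 2738 and 2756, and moved the median change of all neutrophil genes from 0.02 to -0.12.

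In neutrophils, all genes called higher and lower numbered 278 and 613 with DESeq2, 76 and 258 with no filter, 120 and 441 with the shared spread, and 0 to 207 and 0 to 394 without a library. Lipid genes called higher numbered 4 with DESeq2, 1 with no filter and 3 with the shared spread, and lower 1, 0 and 1; leaving out a library gave 0 higher and 0 to 1 lower, the 1 being Scd1 without the first wild-type library. Without both the second wild-type library and knockout replicate 3, 0 were called. The interaction called 1 lipid gene with DESeq2 and 0 to 1 without a library.

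The median change of the 33 lipid genes in neutrophils, 0.58, was 0.86 with the replicate block, 0.42 with upper-quartile scaling and 0.22 to 0.84 without a library.

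Replicate numbers were not taken to pair the libraries: deviations of same-numbered libraries correlated at 0.00926 in LSK cells, and at 0.241 and -0.0068 in neutrophils. With the replicate block, neutrophils had 86 genes higher and 248 lower, with Hmgcs1 the 1 lipid gene higher and Scd1 the 1 lower; in LSK cells the block left 21 higher and 3 lower.

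Genes that did not pass and changed sign in neutrophils were as follows. Without the second wild-type library and knockout replicate 3, Abcg1 was at 0.50, Acaca 0.33, Dhcr7 0.024, Ebp -0.26, Elovl6 0.20, Fasn 0.12, Mylip 0.45 and Tm7sf2 -1.11. With the replicate block, Acaca was at 0.23, Ebp -0.063 and Elovl6 0.19. With upper-quartile scaling, Ebp was at -0.0056 and Srebf1 at -0.018. Leaving out a library, the log2 change ran from -0.52 to 3.99 for Abca1, -1.15 to 0.16 for Abcg1, -0.47 to 0.25 for Acaca, -0.077 to 0.38 for Ebp, -0.85 to 0.19 for Elovl6, -1.34 to 0.11 for Fasn, -0.023 to 1.19 for Insig1, -0.68 to 0.27 for Mylip, -0.25 to 0.51 for Srebf1 and -0.68 to 2.22 for Tm7sf2, and in LSK cells from -0.29 to 0.022 for Insig2; the cause was not tested.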
